A study of Mus musculus with 58 samples.

Results

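The genes described here encode the translation initiation factors eIF1 to eIF6 and the elongation factors eEF1 and eEF2, read in single long-term haematopoietic stem cells (LT-HSC) and common myeloid progenitors (CMP) of mouse bone marrow. Members were chosen by symbol: it had to begin with Eif and a digit from 1 to 6, or with Eef and 1 or 2, and to have at least 20 counts summed over all 58 cells. Of 60 matching symbols, 56 were members, out of 10937 symbols with at least 20 counts and 23152 symbols in the table. The 4 others, Eef1a2, Eif3j1, Eif3j2 and Eif4e1b, were listed at 0 counts in every cell. Eif3j1 and Eif3j2 are near-identical copies, 99.8% alike over the last 500 bases of their transcripts, so a count of 0 for that eIF3 subunit may come from reads that could not be placed. The member nearest the threshold was Eif5a2, with 29 counts. The 4 kinases of eIF2, whose symbols begin with Eif2ak, were left out by rule and are given below with their pathway.

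Initiation joins a ribosome to an mRNA. The eIF4F complex, made of the cap-binding protein eIF4E, the scaffold eIF4G and the RNA helicase eIF4A, prepares the mRNA, eIF2 brings the initiator tRNA, eIF3 holds the small subunit, and eIF1 and eIF1A govern scanning to the start codon. Elongation then delivers each aminoacyl-tRNA with eEF1 and moves the ribosome with eEF2. Haematopoietic stem cells are known for a low rate of protein synthesis compared with progenitors, and the eIF4E-binding proteins and eIF2 are known points of control.

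All cells were wild-type C57BL/6 and were sorted singly by surface markers. The 34 LT-HSC lacked lineage markers, Flt3 and CD34 and carried Kit and Sca-1. The 24 CMP lacked lineage markers, Sca-1 and CD16/32 and carried Kit and CD34. The LT-HSC are described in 2 blocks by cell number, 16 cells numbered 1 to 16 (block 1-16) and 18 cells numbered 17 to 34 (block 17-34). No label gives the cut between cells 16 and 17, or says what the numbers stand for. The labels list passages for these sorted cells, name no animal and give no sex. Each gate is therefore 1 sample of many cells: no test between gates or blocks was possible, intervals are 95% and cover counting error only, and "at least 2-fold" is a rule of size.

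Summed counts were 3410149 for LT-HSC 1-16, 6520982 for LT-HSC 17-34 and 7062737 for CMP, with 45022 to 860553 counts in a cell. With all LT-HSC pooled, all 10 stem cell markers examined, Procr and Hlf among them, exceeded CMP by at least 2-fold (all genes: 22.7%). All 8 CMP and myeloid markers, such as Mpo, were at least 2-fold below CMP, also in each block (all genes: 28.1%, 36.9% and 34.5%). Of the stem cell markers, 9 were higher than CMP in LT-HSC 1-16 and 0 lower (all genes: 21.9% and 36.9%). In LT-HSC 17-34, 7 were higher and 1, Fgd5, lower (all genes: 19.9% and 34.5%). Between the blocks, 7 were higher in LT-HSC 1-16 and 1, Meis1, lower (all genes: 28.3% and 28.9%). Neutrophil markers summed to between 2.19 and 6.06 per 10000 counts in LT-HSC and between 0.0303 and 59.4 in CMP. Xist, made from the inactive X chromosome, was at 0 in all 34 LT-HSC and present in 22 of 24 CMP. The sex of the donors and the gate therefore cannot be told apart, except in those 2 CMP cells. The blocks differed in cell cycle genes: 25 of 27 S phase genes and 30 of 33 G2 and M phase genes were at least 2-fold lower in LT-HSC 1-16 than in LT-HSC 17-34 (all genes: 28.9%). Across the cells of a pool, which differ in depth, Spearman's rho of the summed cell cycle level with the summed level of the 56 members was -0.13 (16 cells), -0.39 (18 cells) and -0.01 (24 cells), in the order LT-HSC 1-16, LT-HSC 17-34 and CMP. The part of the cell cycle, the neutrophil markers and the sex of the donors in the values below was not tested beyond what is stated.

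Taken as a sum, the 56 members took a similar share of the RNA counts in all 3 pools. In LT-HSC 1-16 they held 214 of every 10000 counts (212 to 216), with 191 in the lowest cell, 215 in the median cell and 251 in the highest. In LT-HSC 17-34 they held 193 (192 to 194), with cells at 162, 200 and 239. In CMP they held 220 (219 to 221), with cells at 179, 219 and 249. The cells of the 3 pools overlapped over most of their range. Eef1a1, the eEF1A subunit that carries aminoacyl-tRNA, made up 32.3% of the member counts in LT-HSC 1-16, 25.1% in LT-HSC 17-34 and 24.6% in CMP. With Eef1a1 taken out of the members, both LT-HSC blocks stood at 145 per 10000 counts and CMP at 166.

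The members differed more in how many cells showed them than in their sum. After every cell was thinned to 97978 counts, 33 to 44 members (median 37.5) had a count in the 14 LT-HSC 1-16 cells that were deep enough. In the 16 such cells of LT-HSC 17-34 it was 30 to 45 (median 37), and in the 22 such CMP cells 43 to 52 (median 49). The lowest CMP cells thus overlapped only the highest LT-HSC. At this depth 32 members had a count in every CMP cell, against 18 in every cell of LT-HSC 1-16 and 8 in every cell of LT-HSC 17-34. Before thinning, the medians were 43, 43 and 51.5 members. The difference was shared by other genes. Among the 2537 genes with at least 1000 counts, the median thinned cell showed 70.7% in LT-HSC 1-16, 67.4% in LT-HSC 17-34 and 90.8% in CMP, where the 43 members as abundant stood at 81.4%, 81.4% and 97.7%.

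**Figure D1:**
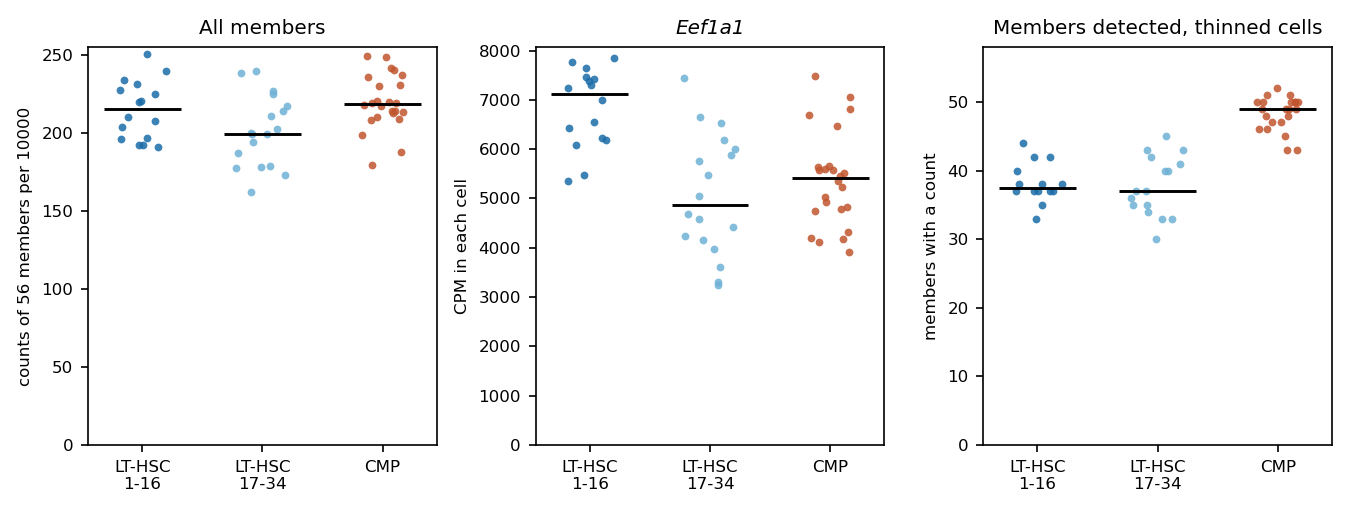
Left: counts of all 56 members per 10000 counts in each cell. Middle: Eef1a1 in counts per 1000000 counts (CPM). Right: number of members with a count after thinning to 97978 counts, in the 52 cells deep enough. Points are cells and black bars are medians. The sums overlap between pools, whereas the members detected have medians of 37.5, 37 and 49.

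Between the LT-HSC blocks, LT-HSC 1-16 had 4 of 56 members at least 2-fold above LT-HSC 17-34 and 4 at least 2-fold below, 7.14% each way. Among all genes with at least 20 counts, 28.3% were at least 2-fold higher and 28.9% at least 2-fold lower. The median member log2 ratio was -0.07, beside -0.06 over all genes. Few genes have as many counts as most members, so abundant genes were also counted alone. Of the 43 members with at least 1000 counts, 1 was at least 2-fold higher (all such genes: 7.7%) and 2 at least 2-fold lower (all such genes: 19.9%). The member higher by this rule was Eif4a2, and the 2 lower were Eif1ad and Eif3b.

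Against CMP, more members were lower than higher in both blocks. The 2 comparisons share the same 24 CMP cells and are given side by side. In LT-HSC 1-16, 3 of 55 members were at least 2-fold higher and 11 at least 2-fold lower (all genes: 21.9% and 36.9%), with a median log2 ratio of -0.31 (all genes: -0.36). In LT-HSC 17-34, 2 of 56 were at least 2-fold higher and 12 at least 2-fold lower (all genes: 19.9% and 34.5%), with a median of -0.21 (all genes: -0.26). With all 34 LT-HSC pooled, 3 were higher and 10 lower (all genes: 22.7% and 28.1%). Of the 43 members with at least 1000 counts, 2 were higher and 7 lower in LT-HSC 1-16 (all such genes: 10.6% and 22.2%). In LT-HSC 17-34, 1 was higher and 6 were lower (all such genes: 12.2% and 11.2%), and with all LT-HSC pooled 1 and 6 (all such genes: 10.4% and 11.2%). The member shares are under those of all genes, except the last 2 counts of 6 lower, which are slightly above. In no comparison did the cells of 2 pools fail to overlap for any of the 56 members. Cells at 0 in both pools count as overlap. The same count over all genes was not made, so whether this is particular to the members cannot be told.

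**Figure D2:**
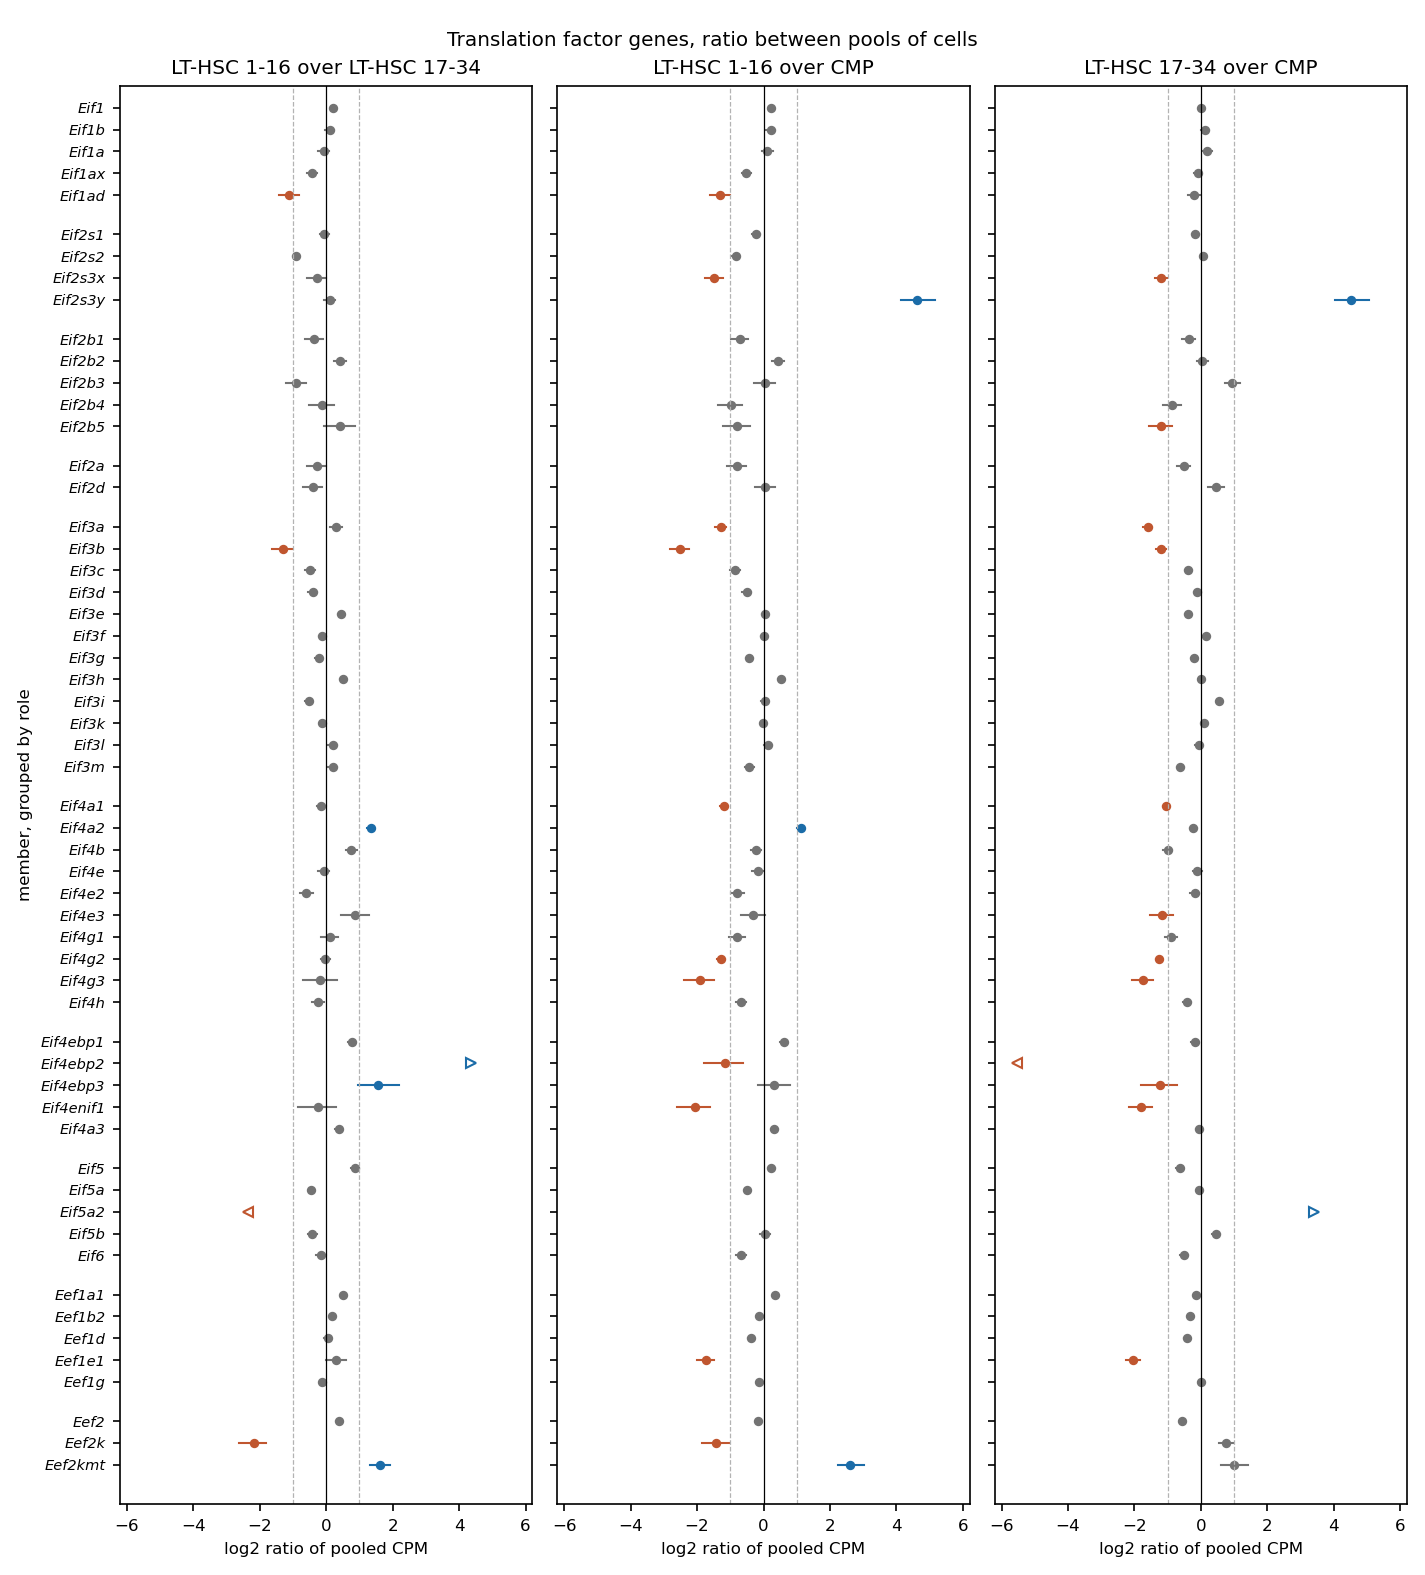
Log2 ratio of pooled CPM of each member in 3 comparisons, with members grouped by role. Points have 95% intervals for counting error, and open triangles are values at a floor of 3 counts where 1 pool had no count. Blue marks members at least 2-fold higher and red at least 2-fold lower, with dashed lines at a log2 ratio of 1 and -1. Most of the 56 members lie between the dashed lines, and the panels against CMP, which share the CMP cells, have 11 and 12 red members.

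One pair of related genes that differed between the pools encodes the eIF4A helicases, which unwind the start of the mRNA. Eif4a1 (mm10, chromosome 11, 69666936 to 69672423, minus strand) and Eif4a2 (chromosome 16, 23107444 to 23114136, plus strand) encode closely related helicases, and no other transcript matched the last 500 bases of either. Eif4a1 ran from 9.27 CPM in the lowest cell to 192 in the median and 638 in the highest in LT-HSC 1-16, from 0 to 251 and 731 in LT-HSC 17-34, and from 89.6 to 381 and 857 in CMP. Most stem cells lay below the CMP median: 3 of 16 and 2 of 18 were above it. The pooled levels were 201, 222 and 461 CPM, a log2 ratio to CMP of -1.20 (-1.32 to -1.08) in LT-HSC 1-16 and -1.05 (-1.14 to -0.96) in LT-HSC 17-34. The second value is close to the 2-fold line, and it was -0.92 without LT-HSC 18. It also came under 2-fold without LT-HSC 17, 22 or 27, or without CMP 19.

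Eif4a2 took another course. Its cells ran from 20.3 to 329 and 1203 CPM in LT-HSC 1-16, from 8.70 to 168 and 540 in LT-HSC 17-34, and from 78.2 to 172 and 528 in CMP. Of the LT-HSC 1-16 cells, 13 of 16 were above the median of LT-HSC 17-34 and 13 of 16 above that of CMP. The pooled levels were 438, 173 and 202 CPM, so that Eif4a2 was 2.53-fold higher in LT-HSC 1-16 than in LT-HSC 17-34 (log2 ratio 1.34, 1.23 to 1.45) and 2.16-fold higher than in CMP (1.11, 1.01 to 1.22). Without LT-HSC 1 these log2 ratios were 1.13 and 0.91, and without LT-HSC 7 the second was also under 2-fold. LT-HSC 17-34 over CMP gave -0.23.

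As a share of the counts of both helicases, which cancels gene length between pools, Eif4a2 held 68.5% (66.5% to 70.5%) in LT-HSC 1-16, 43.7% (41.8% to 45.7%) in LT-HSC 17-34 and 30.5% (29.2% to 31.8%) in CMP. Per cell it ran from 4.21% to 66.9% and 97.8% in LT-HSC 1-16. It ran from 2.35% to 47.4% and 98.8% in the 17 cells of LT-HSC 17-34 with at least 10 counts of the pair, and from 13.7% to 31.7% and 67.9% in CMP. Over 50% of the pair's counts were Eif4a2 in 10 of 16, 8 of 17 and 2 of 24 cells. Stem cells of both blocks therefore reached both ends of the scale, and CMP cells did not. Some extreme shares rest on few counts, such as 1 of Eif4a1 and 24 of Eif4a2 in LT-HSC 28, others on more, such as 2 and 164 in LT-HSC 27. Thinned stem cells also showed fewer abundant genes of any kind (70.7% and 67.4%, against 90.8% in CMP). The part of this in the wider spread was not tested. Across cells within a pool, Spearman's rho of this share with the summed cell cycle level was 0.13, -0.40 and 0.06, in the same order, as a description of cells whose shares rest on unequal counts.

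**Figure D3:**
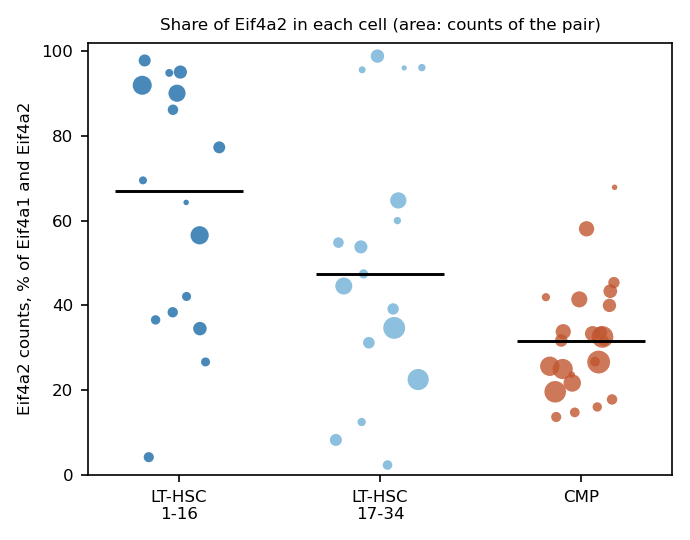
Eif4a2 counts as a percent of Eif4a1 and Eif4a2 counts in each cell with at least 10 counts of the pair. The area of a point grows with the counts of the pair, up to a ceiling, and black bars are medians of cells. The medians are 66.9% in LT-HSC 1-16, 47.4% in LT-HSC 17-34 and 31.7% in CMP. The stem cells spread most widely.

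Stretches of the 2 helicase promoters are shown because the genes differ between these pools while encoding like proteins. They come from the RefSeq promoter windows of GRCm38.p6, 5′ to 3′ on the gene's strand, and capitals mark the E-box CACGTG, a 6-base motif that MYC and related factors bind. The Eif4a1 stretch lies 219 to 154 bases before its annotated start (chr11:69672577-69672642, minus strand). The Eif4a2 stretch is the 60 bases before its start (chr16:23107408-23107467, plus strand) and has no E-box.
Eif4a1: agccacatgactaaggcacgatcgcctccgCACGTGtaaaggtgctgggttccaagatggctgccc
Eif4a2: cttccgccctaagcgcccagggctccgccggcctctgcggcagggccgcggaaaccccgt
A match is a description of the letters and says nothing of binding in these cells.

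Of the 10 cap complex genes, encoding eIF4A, eIF4B, eIF4E, eIF4G and eIF4H, 3 were at least 2-fold lower than in CMP in LT-HSC 1-16 and 4 in LT-HSC 17-34 (all genes: 36.9% and 34.5%), shares near those of all genes. Their medians were -0.73 and -0.95 (all genes: -0.36 and -0.26). Eif4g2 (chromosome 7, 111067750 to 111083030, minus strand) encodes a scaffold that lacks the eIF4E-binding part of eIF4G. It ran from 15.4 to 167 and 624 CPM in LT-HSC 1-16, from 0 to 121 and 571 in LT-HSC 17-34, and from 82.0 to 411 and 919 in CMP. Only 2 of 16 and 3 of 18 stem cells were above the CMP median. The pooled 204, 208 and 495 CPM gave log2 ratios to CMP of -1.28 (-1.40 to -1.16) and -1.25 (-1.34 to -1.16), which stayed between -1.52 and -1.14 when any single cell was left out.

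Both scaffolds that bind eIF4E had few counts in the stem cells. Eif4g1, the main eIF4G, pooled to 56.9, 52.6 and 98.1 CPM, with log2 ratios to CMP of -0.78 and -0.90. Without LT-HSC 10, which held 46.9% of its block's counts, the first was -1.55. Eif4g3, a second eIF4G, had a count in 4 of 16, 3 of 18 and 19 of 24 cells and pooled to 14.4, 16.3 and 54.8 CPM. Its log2 ratios to CMP of -1.92 and -1.75 rested on few cells: they were -3.64 without LT-HSC 16 and -3.12 without LT-HSC 17. Eif4g3 held 20.2%, 23.6% and 35.8% of the counts of Eif4g1 and Eif4g3. Without those same cells its share in the stem cells was 6.88% and 11.8%.

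Of the cap-binding proteins, Eif4e itself differed little, at 127, 133 and 143 CPM, with log2 ratios to CMP of -0.17 and -0.10. LT-HSC 17 held 41.5% of the Eif4e counts of its block, and without it the second ratio was -0.71. Eif4e2, a cap-binding relative known as a repressor, stood at 82.7, 125 and 143 CPM and held 39.4%, 48.3% and 49.9% of the counts of Eif4e and Eif4e2. Eif4e3, another relative, had counts in 3 of 16, 7 of 18 and 20 of 24 cells. LT-HSC 13 held 81.6% of its counts in LT-HSC 1-16, where the pooled 28.7 CPM compared with 15.6 and 35.7. The log2 ratio between the blocks was 0.88 and was -1.44 without that cell, so its direction rests on 1 cell. Against CMP, the log2 ratio of Eif4e3 in LT-HSC 17-34 was -1.19 from pooled counts and 0.64 when CPM were averaged over cells. It was -1.96 without LT-HSC 28 and -0.80 without CMP 1, and also under 2-fold without LT-HSC 18, CMP 20 or CMP 24. Eif4b, a helper of the helicase, was at 169, 99.8 and 199 CPM. Its single cells did not follow the pooled order of the blocks. Of LT-HSC 1-16, 7 of 16 cells were above the LT-HSC 17-34 median, and 13 of 18 cells of LT-HSC 17-34 were above the LT-HSC 1-16 median. Eif4h, a related helper, was at 123, 145 and 195 CPM.

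The eIF4E-binding proteins hold eIF4E away from eIF4G when mTOR is inactive. Eif4ebp1, the best studied of them, had cells that ran from 0 to 256 and 981 CPM in LT-HSC 1-16, from 0 to 183 and 955 in LT-HSC 17-34 and from 12.4 to 186 and 733 in CMP. The pools stood at 313, 181 and 206 CPM, log2 ratios of 0.79 (0.67 to 0.91) between the blocks, 0.60 for LT-HSC 1-16 over CMP and -0.19 for LT-HSC 17-34 over CMP. The ranges overlapped and none of the ratios reached 2-fold.

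Eif4ebp2 was found in CMP and hardly in stem cells. It had 150 counts in 13 of 24 CMP cells, 32 counts in LT-HSC 1-16, all in LT-HSC 15, and 0 in the 18 cells of LT-HSC 17-34. A count of 0 in 18 cells allows a share of up to 18.5% of cells with a count (exact Clopper-Pearson). With 3 counts taken as the floor of a pool, Eif4ebp2 was 46.2-fold lower in LT-HSC 17-34 than in CMP (log2 ratio -5.53). The interval for counting error ended at -5.21. In LT-HSC 1-16 the log2 ratio to CMP was -1.16. Without LT-HSC 15 it was 22-fold lower at the same floor. Leaving out CMP 5 gave a log2 ratio of -0.72, with CMP 19 the other cell that brought it under 2-fold. Eif4ebp3 had counts in 4 of 16, 2 of 18 and 19 of 24 cells and 18.2, 6.13 and 14.6 CPM. Its log2 ratio between the blocks, 1.56, was 0.62 without LT-HSC 2, also under 2-fold without LT-HSC 9, and 3.64 without LT-HSC 34. Against CMP, LT-HSC 17-34 stood at -1.24, or -3.32 without LT-HSC 34 and -0.85 without CMP 14. Its last 500 bases are also those of a readthrough transcript, so its counts cannot be assigned to it alone. Eif4enif1, which carries eIF4E into the nucleus and to processing bodies, was at 11.7, 14.1 and 49.7 CPM. Its log2 ratios to CMP were -2.07 and -1.81, which without LT-HSC 14 and LT-HSC 27 were -2.92 and -2.64. Eif4a3, a helicase of the exon junction complex, stood at 370, 284 and 296 CPM.

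The eIF2 complex has 3 subunits. Eif2s1, the alpha subunit that stress kinases phosphorylate, was alike in the pools at 216, 223 and 250 CPM. Eif2s2, the beta subunit, was lower in LT-HSC 1-16 than in both others. Its cells ran from 14.4 to 363 and 668 CPM in LT-HSC 1-16, from 0 to 503 and 1729 in LT-HSC 17-34 and from 129 to 578 and 1506 in CMP, and only 2 of 16 cells of LT-HSC 1-16 were above the CMP median. The pooled 324, 605 and 581 CPM gave log2 ratios of -0.90 (-1.0 to -0.80) between the blocks and -0.84 (-0.94 to -0.75) for LT-HSC 1-16 over CMP, beside 0.06 for LT-HSC 17-34 over CMP. These are short of 2-fold, although the ratio between the blocks was -1.01 without LT-HSC 18.

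The gamma subunit has a copy on each sex chromosome, and counts of the Y copy were absent from every cell with Xist, while the X copy was read in cells with and without it. Eif2s3y (Y, 1010543 to 1028847, plus strand) was at 126 and 117 CPM in the LT-HSC blocks and at 5.10 CPM in CMP. Its cells ran from 0 to 25.5 and 473 CPM, and from 0 to 6.00 and 616 in LT-HSC 17-34, where LT-HSC 17 held 58.8% of the counts. In CMP its 36 counts all came from the 2 cells without Xist, CMP 1 with 33 and CMP 2 with 3. It was at 0 in the 22 CMP cells with Xist. The log2 ratios to CMP were 4.61 and 4.50. They were 7.84 and 7.73 without CMP 1, and the second was 3.4 without LT-HSC 17. Eif2s3x (X, 94188707 to 94212862, minus strand) had cells from 0 to 4.88 and 264 CPM in LT-HSC 1-16, from 0 to 3.35 and 213 in LT-HSC 17-34, and from 0 to 84.0 and 864 in CMP. Its pooled 42.5, 51.8 and 119 CPM gave log2 ratios to CMP of -1.48 and -1.20. The first was -2.07 without LT-HSC 9, and without CMP 18, its highest cell, they were -0.95 and -0.67. Summed over both copies, the level was 169 CPM in LT-HSC 1-16, 169 in LT-HSC 17-34, 140 in CMP with Xist and 51.2 in the 2 CMP cells without it. The sum thus differed less than either copy.

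**Figure D4:**
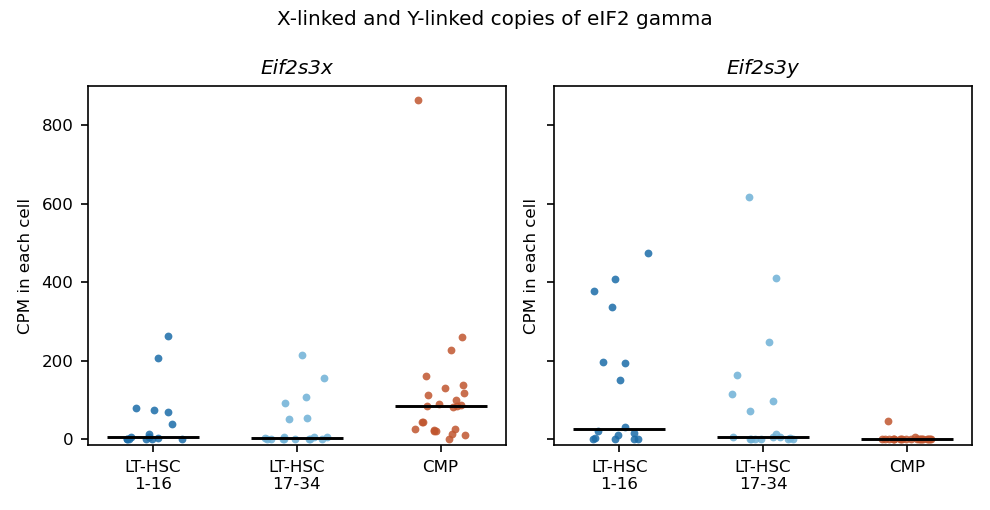
CPM of Eif2s3x (left) and Eif2s3y (right) in each cell of the 3 pools, on a common linear scale. Points are cells and black bars medians. In CMP, Eif2s3y is above 0 in 2 of 24 cells and Eif2s3x is above 0 in 23.

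The starts of the 2 gamma genes are shown because they carry the runs of C and T that mark mRNAs of the translation machinery. The 30 bases run from 10 before the annotated start to 19 after it (RefSeq, GRCm38.p6), for Eif2s3x at chrX:94212632-94212661, minus strand, and for Eif2s3y at chrY:1010585-1010614, plus strand. Capitals mark the unbroken run of C and T from the annotated start, or in Eif2s3y from the base after it.
Eif2s3x: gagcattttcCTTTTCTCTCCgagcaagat
Eif2s3y: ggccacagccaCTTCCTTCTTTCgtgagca
The rule searched was a C at the annotated start followed by at least 4 bases that are C or T, on the gene's strand. Eif2s3x met it, and in Eif2s3y the run begins 1 base after the annotated start. Of the 44 members with a window, 2 genes met the rule (4.55%; all 27025 genes: 3.01%), Eif2s3x and Eif3f.

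The 5 eIF2B genes encode the exchange factor that reloads eIF2 with GTP. They were at 14.6 to 119 CPM in the pools, and none reached 2-fold between the blocks (all genes: 28.3% higher and 28.9% lower). Eif2b5, the catalytic subunit, was at 19.4, 14.6 and 33.7 CPM. Its log2 ratio in LT-HSC 17-34 over CMP was -1.21 (-1.57 to -0.86), and it was -2.17 without LT-HSC 20, -0.92 without CMP 18 and 0.35 in thinned cells. Eif2b3 pooled to 37.2, 69.6 and 36.1 CPM, but LT-HSC 10 held 77.2% of its counts in LT-HSC 1-16. Its log2 ratio between the blocks was -0.90 and without that cell was -2.87. Its log2 ratio in LT-HSC 17-34 over CMP, 0.95, was 1.63 without CMP 7. Eif2b1, Eif2b2 and Eif2b4 had log2 ratios to CMP between -0.99 and 0.45. Eif2a and Eif2d encode other factors that can deliver tRNA, and their log2 ratios to CMP lay between -0.80 and 0.46.

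Of the 5 genes grouped here by symbol with the scanning factors, 1, Eif1ad, was at least 2-fold lower in LT-HSC 1-16 than in either other pool. The all-gene shares lower were 28.9% between the blocks and 36.9% against CMP. Eif1, Eif1b, Eif1a and Eif1ax had log2 ratios between -0.51 and 0.22. None of the 5 reached 2-fold in LT-HSC 17-34 over CMP (all genes: 19.9% higher and 34.5% lower). Eif1, which guards start codon choice, pooled to 2009, 1728 and 1724 CPM, and its cells ran from 531 to 1976 and 3972, from 784 to 1869 and 3265, and from 1190 to 1705 and 3415. Every cell of all 3 pools had Eif1 counts. Eif1b held 8.44%, 9.08% and 8.49% of the counts of Eif1 and Eif1b. Eif1a was at 136, 143 and 125 CPM, and LT-HSC 33 had 49.5% of its block's counts. The log2 ratio of Eif1a between the blocks was -0.07, and 0.71 without that cell. Its X-linked copy Eif1ax was at 150, 200 and 214 CPM, and within CMP at 221 with Xist and 180 without. Eif1ad, named for an eIF1A-like domain, was at 33.7, 73.0 and 83.8 CPM and had a count in 6 of 16, 15 of 18 and 24 of 24 cells. Its log2 ratio between the blocks was -1.11, which was -1.96 without LT-HSC 15 and -0.80 without LT-HSC 18. Leaving out LT-HSC 1, 4, 10, 12 or 16 also brought it under 2-fold. Against CMP it was -1.31 in LT-HSC 1-16, or -2.16 without LT-HSC 15, and -0.20 in LT-HSC 17-34.

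The 12 measured subunits of eIF3 did not move together. Between the blocks 0 were at least 2-fold higher and 1 lower (all genes: 28.3% and 28.9%). Against CMP 0 were higher and 2 lower in each block. The all-gene shares were 21.9% and 36.9% in LT-HSC 1-16, and 19.9% and 34.5% in LT-HSC 17-34. Medians against CMP were -0.22 and -0.16 (all genes: -0.36 and -0.26). The 2 lower against CMP were Eif3a and Eif3b, core subunits on which the complex is built. Eif3a (chromosome 19, 60761117 to 60790658, minus strand) ran from 0 to 43.2 and 580 CPM in LT-HSC 1-16, from 0 to 14.3 and 528 in LT-HSC 17-34, and from 14.8 to 269 and 819 in CMP. Above the CMP median were 5 of 16 and 2 of 18 stem cells. Pooled levels of 119, 96.5 and 292 CPM gave log2 ratios to CMP of -1.29 (-1.45 to -1.14) and -1.60 (-1.73 to -1.47). The second was -2.70 without LT-HSC 34, which had 58.7% of the counts of its block.

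Eif3b (chromosome 5, 140419328 to 140443360, plus strand) was concentrated in a few of the stem cells. It ran from 0 to 4.88 and 281 CPM in LT-HSC 1-16, from 0 to 4.80 and 695 in LT-HSC 17-34, and from 11.7 to 166 and 751 in CMP. Every CMP cell was above the medians of both blocks, while 3 of 16 and 4 of 18 stem cells were above the CMP median. The pooled levels were 32.8, 81.6 and 189 CPM. Log2 ratios to CMP were -2.52 (-2.81 to -2.24) and -1.21 (-1.36 to -1.06), and the log2 ratio between the blocks was -1.31 (-1.62 to -1.02). Without LT-HSC 13 the first and the last were -3.20 and -1.99. Without CMP 7 the second was -0.99, and it was -0.83 when CPM were averaged over cells.

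The other 10 eIF3 genes had log2 ratios to CMP between -0.86 and 0.56. Eif3h was at 477, 333 and 330 CPM, with log2 ratios of 0.52 between the blocks and 0.53 for LT-HSC 1-16 over CMP. Eif3i, a partner of Eif3b, was at 303, 434 and 295 CPM, with log2 ratios of -0.52 between the blocks and 0.56 for LT-HSC 17-34 over CMP. Eif3k was nearly level, at 735, 800 and 745 CPM.

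**Figure D5:**
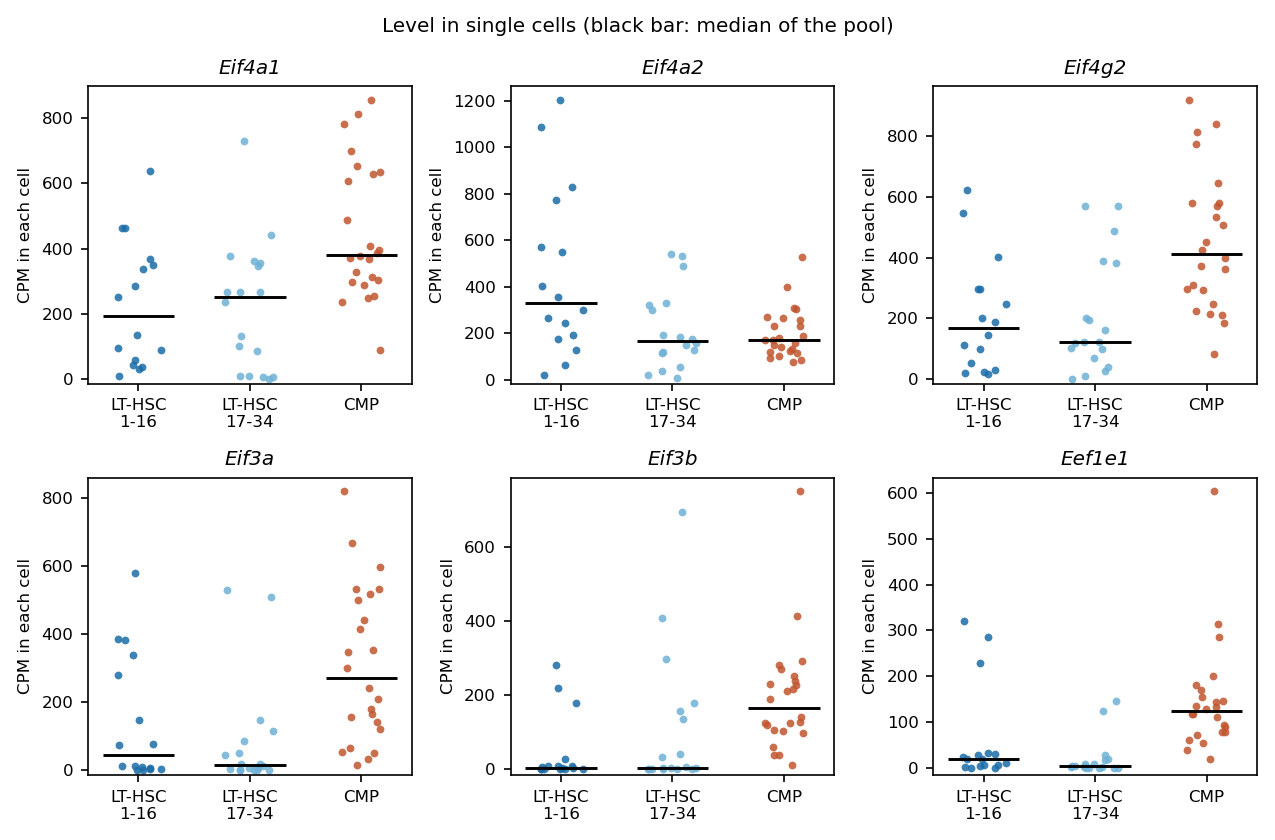
CPM of 6 members in each cell, by pool, on linear axes that differ between panels. Points are cells and black bars are medians. Eif4a1, Eif4g2, Eif3a, Eif3b and Eef1e1 have medians lower in both LT-HSC blocks than in CMP, and Eif4a2 has its highest median, 329 CPM, in LT-HSC 1-16.

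Factors of subunit joining and release followed no common course. Eif5, which triggers GTP hydrolysis on eIF2, ran from 0 to 294 and 985 CPM in LT-HSC 1-16, from 0 to 143 and 566 in LT-HSC 17-34, and from 58.6 to 285 and 740 in CMP. Pooled it stood at 357, 196 and 305 CPM, log2 ratios of 0.87 (0.75 to 0.98) between the blocks, 0.23 and -0.64 (-0.74 to -0.54) to CMP. Eif5a, the hypusinated factor that helps ribosomes over difficult peptide bonds, pooled to 1418, 1925 and 2006 CPM. Of the LT-HSC 1-16 cells, 4 of 16 were above the CMP median, and the log2 ratio was -0.50 (-0.55 to -0.45), beside -0.06 for LT-HSC 17-34. Its relative Eif5a2 had 29 counts in all, in 3 cells of LT-HSC 17-34, and 27 of them in LT-HSC 20. That is at least 10.47-fold higher than in CMP and at least 5.06-fold higher than in LT-HSC 1-16, but it describes 1 cell. Eif5b, the joining GTPase, was at 170, 227 and 166 CPM. Eif6, which keeps ribosomal subunits apart, was at 131, 146 and 209 CPM, with log2 ratios to CMP of -0.67 and -0.52.

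Among the elongation factors, the cells of Eef1a1 ran from 5345 to 7116 and 7842 CPM in LT-HSC 1-16, from 3246 to 4871 and 7436 in LT-HSC 17-34, and from 3913 to 5406 and 7490 in CMP. All 16 cells of LT-HSC 1-16 were above the median of LT-HSC 17-34, and 15 of 16 above that of CMP. The pooled 6914, 4855 and 5419 CPM gave log2 ratios of 0.51 (0.49 to 0.53) between the blocks, 0.35 (0.33 to 0.38) for LT-HSC 1-16 over CMP and -0.16 for LT-HSC 17-34 over CMP. Leaving out any 1 cell kept the ratio between the blocks between 0.44 and 0.58. Ribosomal protein genes were also higher there, at 2936, 2361 and 2294 per 10000 counts, and the part of a shared shift in such abundant genes was not tested. Eef1a1 shares its 3′ end with 13 other genes, 10 of them pseudogenes, at 95% identity or more, so some of its reads may have been placed elsewhere or dropped.

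The eEF1B subunits recharge eEF1A with GTP. Eef1b2 was at 1221, 1072 and 1354 CPM, Eef1g at 968, 1057 and 1054, and Eef1d at 331, 319 and 429. Eef1e1 (chromosome 13, 38644207 to 38659058, minus strand) is named as an eEF1 member but encodes an auxiliary protein of the multi-tRNA synthetase complex. It ran from 0 to 20.005 and 321 CPM in LT-HSC 1-16, from 0 to 4.79 and 146 in LT-HSC 17-34, and from 19.02 to 124 and 603 in CMP. All 24 CMP cells were above the median of LT-HSC 17-34, and 23 of 24 above that of LT-HSC 1-16. The pooled 44.9, 36.3 and 149 CPM gave log2 ratios to CMP of -1.73 (-1.99 to -1.49) and -2.03 (-2.25 to -1.83), the second -2.72 without LT-HSC 34.

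Eef2, the translocase, was at 507, 385 and 566 CPM, with log2 ratios to CMP of -0.16 and -0.56. Eef2k, the kinase that halts eEF2, was at 17.0, 77.9 and 46.0 CPM and had a count in 6 of 16, 10 of 18 and 19 of 24 cells. Its log2 ratio between the blocks was -2.18, and -3.26 without LT-HSC 12. Against CMP, LT-HSC 1-16 stood at -1.43, and single cells moved it to -2.50 (without LT-HSC 12) or -0.75 (without CMP 18). That of LT-HSC 17-34 to CMP, 0.76, was 1.43 without CMP 18. Eef2kmt, a methyltransferase of eEF2, was at 68.0, 22.1 and 11.04 CPM in 7 of 16, 9 of 18 and 14 of 24 cells. It was 1.62 higher on the log2 scale in LT-HSC 1-16 than in LT-HSC 17-34 and 2.62 higher than in CMP, which without LT-HSC 12 were 0.92 and 1.92. Its level in LT-HSC 1-16 thus leaned on 1 cell with 43.5% of the counts.

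Altogether 9 members were at least 2-fold lower than CMP in both LT-HSC blocks: Eif4a1, Eif4g2, Eif4g3, Eif4ebp2, Eif4enif1, Eif3a, Eif3b, Eif2s3x and Eef1e1. That is 9 of 55 members with a ratio in both (all genes: 20.4%), a share below that of all genes. Among genes with at least 1000 counts it was 6 of 43 members, or 13.95% (all such genes: 6.46%), a share above that of all such genes. Since both blocks were set against the same CMP cells, the second block is no separate check of CMP. Of the 9, Eif4g2, Eif4g3, Eif3a and Eef1e1 stayed at least 2-fold lower in both under each of 69 other settings. Of these settings, 58 left out 1 cell. Not all 69 could change this outcome. Other minimum counts, and another treatment of pools without a count, left the ratios of these genes untouched. Leaving out a cell of 1 LT-HSC block could not move the ratio of the other block. Leaving out a stem cell with a high level could only lower the ratio. The tally is therefore no count of separate checks. Eif4a1 was -0.86 and -0.93 in thinned cells, Eif4enif1 was -0.33 in LT-HSC 17-34 with CPM averaged over cells, and Eif4ebp2 was -0.92 in LT-HSC 1-16 under median-of-ratios scaling. Without the 2 CMP cells that lack Xist, all 9 were still at least 2-fold lower. That setting compares cells without Xist to cells with it, so it cannot separate sex from gate. Eif2s3x could only fall further, since it was at 23.3 CPM in those 2 cells and 140 CPM in the other CMP.

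The E-box CACGTG, which reads the same on both strands, was searched in the RefSeq promoter windows, 250 bases before to 50 after each annotated start. It was found in 12 of 44 member genes with a window (27.3%), beside 8.09% of all 27025 genes, 12.1% of genes with at least 20 counts and 13.3% of genes with at least 1000 counts. No window was given for 12 members. Of the 9 members lower in both blocks, 8 had a window and 2 had the E-box, Eif4a1 and Eif3a. Of the other members, 10 of 36 had it: Eef2, Eef2k, Eif1b, Eif3f, Eif3k, Eif4e, Eif4g1, Eif4h, Eif5a and Eif5a2. The Eif3a stretch is shown as the second E-box of that set and lies across its annotated start (chr19:60790664-60790701, minus strand), with the motif in capitals.
Eif3a: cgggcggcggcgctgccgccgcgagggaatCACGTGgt

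Genes that act on these factors were read from lists chosen with earlier results known. Over all genes, 21.9% were at least 2-fold higher and 36.9% lower than CMP in LT-HSC 1-16, and 19.9% and 34.5% in LT-HSC 17-34. Between the blocks it was 28.3% and 28.9%. Of 18 genes of mTOR signalling to translation, 10 were at least 2-fold lower than CMP and 0 higher in LT-HSC 1-16, and 9 lower and 3 higher in LT-HSC 17-34, with medians of -1.25 and -0.75. Mtor itself, the kinase, was at 3.23, 6.75 and 18.5 CPM, with counts in 3 of 16, 3 of 18 and 11 of 24 cells. Tsc1, a brake on it, was at 1.47, 5.83 and 24.5 CPM, with counts in 2, 3 and 12 of those cells. The 3 genes higher in LT-HSC 17-34 were Rptor, Mlst8 and Rps6kb2, with counts in 3, 3 and 2 of its 18 cells. Rptor, the highest there, was at 2.64, 34.2 and 6.23 CPM in the 3 pools. Ddit4, the lowest there, was at 0.586, 0 and 8.64 CPM, with counts in 1, 0 and 6 cells. Of 15 partners of the cap and the poly(A) tail, 8 and 7 were lower and 0 higher, with medians of -1.21 and -0.99. Pabpc1, the poly(A)-binding protein that eIF4G contacts, was at 520, 967 and 1531 CPM, with log2 ratios to CMP of -1.56 and -0.66. Of 9 genes of termination and recycling, 8 were lower and 1 higher in LT-HSC 1-16, 4 lower and 1 higher in LT-HSC 17-34, and 7 lower and 0 higher in the first block than in the second. The higher gene was Gspt2, a relative of Gspt1, with counts in 1 of 16, 1 of 18 and 2 of 24 cells. Etf1, the release factor, was at 9.97, 47.4 and 123 CPM and Gspt1, its GTPase, at 13.2, 61.5 and 117.

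Of 11 eIF2 kinase and stress response genes with a ratio to CMP, 3 were at least 2-fold higher and 3 lower in LT-HSC 1-16. In LT-HSC 17-34 it was 2 and 3. All-gene shares, for these and the lists below, were 21.9% and 36.9% in LT-HSC 1-16 and 19.9% and 34.5% in LT-HSC 17-34. Among the 4 eIF2 kinases, Eif2ak1 was at 30.2, 21.6 and 27.9 CPM, with counts in 5 of 16, 7 of 18 and 11 of 24 cells. Eif2ak2 was at 6.74, 23.8 and 18.5 CPM, with counts in 2, 2 and 13 cells. Eif2ak3 was at 0.293, 0 and 5.95 CPM (1, 0 and 7 cells), and Eif2ak4 at 0.880, 44.0 and 26.5 (3, 6 and 19 cells). Atf4, translated when eIF2 is phosphorylated, was at 416, 107 and 289 CPM. Trib3, one of its targets, was at 63.0, 0.613 and 0.566 CPM, with counts in 5 of 16, 3 of 18 and 4 of 24 cells. Of 10 genes of hypusine and diphthamide synthesis, which modify eIF5A and eEF2, 2 were higher and 4 lower in LT-HSC 1-16. In LT-HSC 17-34 it was 0 and 3, and the shares lower are near those of all genes. Of 85 ribosomal protein genes, 1 was higher and 2 lower in LT-HSC 1-16, and 0 and 3 in LT-HSC 17-34, with medians of 0.27 and -0.03.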

How the data were processed

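Whole-number counts per gene symbol and cell are in the 1 table that the authors deposited. Per the labels' protocols, libraries came from a modified Smart-seq2 method with cell barcodes and molecular identifiers and capture of 3′ ends, so counts were not divided by gene length. Whether the counts are molecules or reads is not given in the sources used here. TopHat2 2.0.12, HTSeq, Seurat 2.0 and mm10 are named, per the submitters' processing notes, with no role. All 58 columns were used, no cell was removed, and doublets were not searched for, since cells were sorted singly. 0 pairs of columns were identical.

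The counts of a pool's cells were added up and scaled to CPM (Poisson intervals). Log2 ratios used 0.5 added to each count, with exact conditional binomial 95% intervals. A pool at 0 was set to 3 counts, a departure from the planned addition of 0.5 alone. The fold at that floor leaves out the counting error of the other pool. No fold was given where both pools had 3 or fewer. Shares have Clopper-Pearson intervals. Amplified counts are not independent, so intervals cover counting error only.

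The members, the block cut and all lists were chosen with earlier results of these data known. Every member is reported by role. Full values were set for the 5 highest and 5 lowest ratios of each comparison among members with at least 50 counts, the 6 members with most counts and fixed pairs. Eif4g2 and Eif2b5, and most list genes named, were chosen after their values were seen. Alternatives were CPM averaged over cells, scaling by median of ratios, leaving ribosomal protein genes and Rn45s out of the total, no shallow cells, thinning, 1 added to each count, minimums of 50 and 1 count, no CMP cells lacking Xist and each cell left out. Adding 0.5 also to pools at 0, and leaving out Eef1a1, were added after the data were seen. Transcript ends of 500 bases were compared with GENCODE M21 by BLAST (95% identity over 100 bases). Coordinates are 1-based. Python 3.11.15, numpy 2.4.6, pandas 2.3.3 and scipy 1.17.1 were used.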

Additional observations from a re-analysis of the deposited data

How the results depend on the processing

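Of 155 values of summary results under other settings, 139 lay within their interval or within 1.5 times the main count, and 16 moved. The interval covers counting error for sums and shares. For the medians it is a binomial interval over the ranked member ratios, which reflects the spread between members. The median log2 ratio of LT-HSC 17-34 over CMP was -0.056 with median-of-ratios scaling, and 4 members were at least 2-fold higher in place of 2, or 1 with a minimum of 50 counts. Median-of-ratios scaling moved the median of all genes by 0.24 for LT-HSC 1-16 over CMP, 0.15 for LT-HSC 17-34 over CMP and 0.13 for all LT-HSC over CMP, and a total without ribosomal protein genes and Rn45s moved it by 0.15 for both comparisons of LT-HSC 1-16. With that total, the summed level was 315, 257 and 292 per 10000 counts. With Eef1a1 left out of both members and total it was 146, 145 and 167. In LT-HSC 17-34 it was 201 with CPM averaged over cells and 199.67 thinned. In CMP it was 219.2 thinned and 216.8 without the cells lacking Xist. The Eif4a2 share was 66.3% and 63.9% in LT-HSC 1-16 by mean CPM and thinned, and 49.2% in LT-HSC 17-34 by mean CPM. Eif4e3 in LT-HSC 17-34 over CMP turned to 0.64 by mean CPM. Eif2b5 turned to 0.35 in that comparison and to 0.044 for all LT-HSC over CMP when cells were thinned. The causes were not tested.

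With 1 cell left out at a time, the medians ran from -0.14 to 0.08 between the blocks, -0.31 to -0.22 for all LT-HSC over CMP, -0.42 to -0.21 for LT-HSC 1-16 over CMP and -0.32 to -0.18 for LT-HSC 17-34 over CMP. In that order, members at least 2-fold higher were 3 to 6, 2 to 4, 2 to 3 and 2 to 4 (4 without LT-HSC 17), and members at least 2-fold lower were 3 to 6, 8 to 12, 10 to 14 and 10 to 15. Summed levels were 211 to 216, 190.5 to 197 and 217 to 223, and Eif4a2 shares 64.3% to 71.4%, 39.9% to 47.8% and 29.2% to 31.6%. No paired analysis was possible because the numbers shared by LT-HSC and CMP cells only name cells. With 45022 counts in the shallowest cell, a gene at 0 in 1 cell cannot be told from one at a low level.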

Other observations

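Immediate early genes, which a cell switches on soon after a stimulus, differed between the LT-HSC blocks. Of 14 with a ratio, 10 in LT-HSC 1-16 exceeded LT-HSC 17-34 by at least 2-fold and 0 fell short of it by as much (all genes: 28.3% and 28.9%), with a median log2 ratio of 2.29. Fos was at 1050 CPM, 103 and 855 in LT-HSC 1-16, LT-HSC 17-34 and CMP, and Egr1 at 282, 32.4 and 74.2, while Jun had a log2 ratio of 0.27 between the blocks. Over single cells their sum ran from 0.436 to 37.3 and 75.5 per 10000 counts in LT-HSC 1-16, from 0.666 to 5.14 and 19.5 in LT-HSC 17-34, and from 2.40 to 23.2 and 85.1 in CMP. Sms, the spermine synthase that draws on the same polyamine pool as hypusine, was at 11.7, 127 and 134 CPM in the 3 pools, with a count in 7 of 16, 10 of 18 and 24 of 24 cells.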
